A study of Mus musculus with 6 samples.

Results

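The immunoglobulin light variable segment genes are the genes whose symbol begins with *Igkv* or *Iglv*, and they were found by symbol alone. They numbered 163 of the 46078 gene identifiers counted in the RNA-Seq libraries. Of these, 160 belonged to the kappa locus, of which 100 are annotated as functional variable genes and 60 as pseudogenes, and 3 belonged to the lambda locus. The question was which segments the antibody light chains of the chronic stroke infarct are built from, and whether the 3 infarcts built them from the same segments.

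Bulk RNA-Seq was performed on 3 infarcts and 3 equivalent regions of the contralateral cortex from wild-type male C57BL/6J mice. The labels give an age of 3 months and a time point of 7 weeks after stroke, and both regions share genotype, strain, age and time. Stroke was induced with the distal hypoxic model, in which permanent occlusion of the middle cerebral artery is followed by hypoxia, and the contralateral cortex is the uninjured side of an operated and not of an untouched brain. The labels do not say which samples came from which animal, so *p* values measure the spread between these samples. Totals on genes ranged from 11943570 to 19933962 counts per library, and infarct totals differed by less than contralateral ones.

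A developing B lymphocyte makes its light chain by joining 1 variable segment to 1 joining segment, and the joined exon is then spliced to a constant gene. In mice the kappa locus is used by most B cells and the lambda locus by a minority, and each B cell or antibody-secreting plasma cell generally displays a single light chain. Kappa segments lie in either orientation, so that joining deletes the intervening DNA for some and inverts it for others. The variable segment encodes the first 2 antigen-contacting loops of the light chain and the start of the third, and segments of similar sequence are grouped into families, given by the number after *Igkv*.

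The ends of the segments that carried most of the counts are printed first, to show the germline sequences in which the leading segments of the 3 infarcts differ. They are the last 60 bases of each annotated transcript (GENCODE M21, GRCm38), 5′ to 3′ on the coding strand. Capitals mark the bases from the conserved cysteine codon to the end of the segment, where the third loop begins. The codon was taken as the last TGC or TGT that follows a tyrosine codon and 1 further codon. The first 3 lines are the 3 most used kappa segments of infarct 1, the next 3 are those of infarct 2 and the 2 after them are those of infarct 3, where *Igkv12-41* was again among the 3. The last 3 lines are the lambda segments.
Igkv10-96: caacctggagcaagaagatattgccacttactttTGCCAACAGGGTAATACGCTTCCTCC
Igkv4-55: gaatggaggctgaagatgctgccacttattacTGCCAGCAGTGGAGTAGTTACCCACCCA
Igkv12-41: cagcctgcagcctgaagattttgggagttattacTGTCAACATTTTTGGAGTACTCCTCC
Igkv10-94: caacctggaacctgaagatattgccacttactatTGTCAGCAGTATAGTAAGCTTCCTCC
Igkv14-126: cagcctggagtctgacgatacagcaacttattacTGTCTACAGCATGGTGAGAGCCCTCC
Igkv4-68: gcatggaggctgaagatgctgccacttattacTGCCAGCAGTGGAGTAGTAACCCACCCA
Igkv5-39: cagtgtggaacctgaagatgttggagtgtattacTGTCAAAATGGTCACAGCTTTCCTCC
Igkv8-30: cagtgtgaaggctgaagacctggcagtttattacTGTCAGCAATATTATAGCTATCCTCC
Iglv1: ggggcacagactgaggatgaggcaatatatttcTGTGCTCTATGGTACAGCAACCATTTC
Iglv2: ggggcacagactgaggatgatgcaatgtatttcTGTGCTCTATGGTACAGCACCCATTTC
Iglv3: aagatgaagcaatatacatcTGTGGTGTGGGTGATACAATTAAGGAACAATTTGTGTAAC

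Light variable transcripts were abundant in every infarct and nearly absent from every contralateral cortex. Summed over the kappa segments, infarcts 1, 2 and 3 held 17272, 5367 and 2496 counts, whereas the contralateral cortices held 8, 2 and 36. Counts summed over the lambda segments were 329, 230 and 244 in infarcts and 0 in each contralateral cortex. The regions did not overlap for either locus.

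On the CPM scale, that is counts scaled to library size with edgeR's TMM factors, the summed kappa level was 1376, 394 and 170 in infarcts against 0.418, 0.130 and 3.32 on the contralateral side. The mean was 647 ± 641 CPM (SD, n = 3) in infarcts and 1.29 ± 1.77 CPM (SD, n = 3) in contralateral cortices, a 501-fold difference. An exact two-sided permutation test gave *p* = 0.1, the smallest value that 3 against 3 libraries allow. The difference of 645 CPM fell to 281 CPM without infarct 1, and the fold difference was then 219. Without contralateral cortex 3 the fold difference was 2360. The regions did not overlap in either case. The summed lambda level was 26.2, 16.9 and 16.7 CPM in infarcts, a mean of 19.9 ± 5.45 (SD, n = 3). Since no contralateral library held a lambda count, the lambda level was at least 95-fold higher in infarcts, against a floor of 3 counts in each contralateral library.

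**Figure D1:**
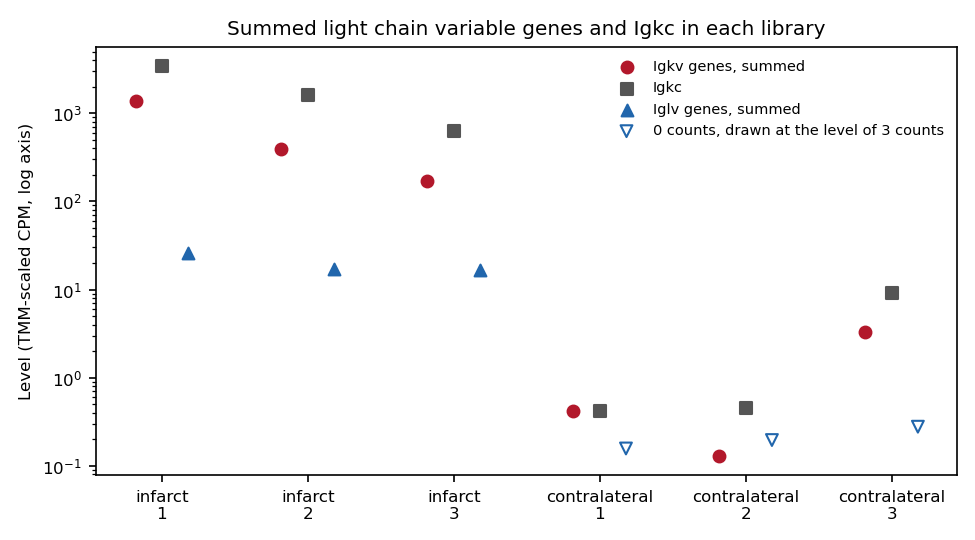
The plot of summed levels by library shows TMM-scaled CPM on a log axis for the kappa variable genes, the lambda variable genes and the kappa constant gene *Igkc* in each of the 6 libraries. Kappa levels fall from 1376 to 170 CPM over the 3 infarcts, the lambda levels lie between 16.7 and 26.2 CPM, and all contralateral points are below 10 CPM.

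The highest kappa variable level among infarcts was 8.08 times the lowest, against 1.57 times for the lambda variable segments. *Igkc*, the single kappa constant gene, had 42767, 22027 and 9223 counts in infarcts against 8, 7 and 99 on the contralateral side, and its highest infarct level was 5.41 times its lowest. The lambda constant genes, at 17.4, 4.26 and 8.53 CPM in infarcts, had a ratio of 4.08, on 218, 58 and 125 counts. The order of the infarcts was the same for the kappa variable segments and for *Igkc*, but not for the lambda constant genes. *Igkc* rose by 9.27 on the log2 scale (SE 1.62) with an adjusted *p* of 0.00356 by edgeR's quasi-likelihood test. It passed the filter on low counts, described below, through its infarct counts. For every 100 counts on *Igkc* there were 40.4, 24.4 and 27.1 counts on kappa variable segments in infarcts 1, 2 and 3.

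Markers of the cells that express light chains were higher in infarcts in the same comparison, in which 25.7% of all genes tested were called higher. Of 13 plasma cell genes, 12 were tested and 12 rose, with a median log2 fold change of 4.32, against a median of 0.03 over all 15554 genes tested. The untested gene, *Tnfrsf17*, had 40, 12 and 2 counts in infarcts against 3, 1 and 0. The plasma cell list summed to 3840, 2068 and 1149 CPM in infarcts and between 212 and 223 CPM in contralateral cortices. Most of the contralateral sum was *Xbp1*, at 92.7 to 108 CPM, and *Txndc5*, at 84.4 to 97.6 CPM. In infarct 3 *Txndc5* held 269 CPM and *Jchain* 162 CPM. *Jchain*, which links antibody units into polymers, had 25142, 9848 and 2370 counts in infarcts and between 22 and 37 in contralateral cortices. All 12 of 12 B cell genes rose, with a median log2 fold change of 7.93. It was 5.46 with the genes at or under 3 counts in every contralateral library set to their lower bounds. Of the 12, 6 were such genes. At least these 6 entered the fit through their infarct counts and had to differ. The B cell list summed to 460, 257 and 220 CPM in infarcts and 12.2 to 14.8 CPM in contralateral cortices. The plasma cell list fell over infarcts 1, 2 and 3 as the kappa segments did.

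Other cell types also differed between the regions, where 25.7% of all genes tested were called higher in infarcts and 20.9% lower. All 7 cortical neuron genes fell, with a median log2 fold change of -3.09, and summed to 478, 657 and 1253 CPM in infarcts and to 7199 CPM or more in contralateral cortices. All 6 macrophage genes rose, with a median of 5.30, and summed to 8808, 7586 and 5317 CPM in infarcts against 42.1 to 54.7 CPM. Of 10 T cell genes 9 were tested and 9 rose, with a median of 8.06, or 5.51 with lower bounds. For 5 of the 9 no contralateral library held more than 3 counts. At least these 5 entered the fit through their infarct counts and had to differ. The T cell list summed to 157, 67.4 and 39.4 CPM in infarcts against 3.05 to 4.65 CPM. All 6 genes of leptomeninges and fibroblasts rose, with a median of 6.44 and summed levels of 4689 to 5820 CPM against 140 to 175 CPM. Of 5 red blood cell genes 2 were tested and 2 rose, with a median of 2.64, and the list summed to 30.2, 8.08 and 10.4 CPM in infarcts against 0.846 to 4.28 CPM. Infarct 1 had the highest kappa, plasma cell, T cell and macrophage levels and the lowest neuron level, and infarct 3 the reverse. The part of tissue composition in the order of the infarcts was not tested. In bulk tissue, more cells of a type and more RNA per cell cannot be told apart.

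Most genes that work on the light chain loci did not pass the test. Of 12 genes of recombination and diversification, 8 were tested, with a median log2 fold change of 0.55, and 1 rose. It was *Polh*, a polymerase of somatic hypermutation, up by 1.41 on the log2 scale (adjusted *p* = 0.00266, edgeR). By the same rule 25.7% of all genes tested were called higher. *Rag2*, a subunit of the recombinase, had 0 counts in all 6 libraries, and its partner *Rag1* had 2, 14 and 9 counts in infarcts against 6, 5 and 1 on the contralateral side. Of the surrogate light chain genes of precursor B cells, *Vpreb1*, *Vpreb2* and *Igll1* had 0 counts in every library, and *Vpreb3* had 14, 1 and 7 counts in infarcts against 1, 0 and 0 on the contralateral side. None of the 4 was tested.

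Tests of single segments were possible for few members. Of the 163 genes, 64 had 0 counts in all 6 libraries, 98 had a count in some infarct and 23 had a count in some contralateral cortex. The infarcts held counts for 80, 65 and 67 members and the contralateral cortices for 4, 2 and 18. With the filter on low counts, which asks for reads in 3 libraries, 18 members entered the edgeR fit and all 18 were called higher in infarcts at an adjusted *p* under 0.05 and a log2 fold change above 1. The same call was made for 25.7% of all genes tested. For 15 of these 18 members no contralateral library held more than 3 counts. The other 3, *Igkv10-96*, *Igkv12-41* and *Igkv4-55*, held at most 6 counts in a contralateral library. All 18 thus passed the filter through their infarct counts and had to differ, and their number describes the filter as much as the tissue. The other 145 members were not tested. All 3 infarct values lay above all 3 contralateral values for 42 of the 163 genes, the tested 18 among them, and for 37.6% of all genes tested.

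Of the segments tested, *Iglv1* (ENSMUSG00000076934) had the smallest *p*, with no contralateral count to vary. It had 276, 196 and 217 counts in infarcts and none in any contralateral library. Its infarct level was at least 81.4-fold higher than the contralateral floor. Its fitted log2 fold change of 10.94 (SE 0.59, adjusted *p* = 2.51e-06, edgeR) depends on the count added before taking logarithms and is no bound. The infarcts lay close together for this gene.

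*Igkv6-23* was second by *p*, with 71, 68 and 126 infarct counts against 0, 0 and 1 on the contralateral side (adjusted *p* = 7.23e-06, edgeR). *Igkv17-127* was the third, with 60, 69 and 33 counts against 0 in each contralateral library (adjusted *p* = 8.55e-05, edgeR). Neither was among the leading 3 segments of any infarct. Both entered the fit through their infarct counts, as all of the members tested did.

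The most abundant segment, *Igkv10-96* (ENSMUSG00000094420), had 9493, 72 and 166 infarct counts against 0, 1 and 6 on the contralateral side. The fitted log2 fold change was 10.59 with an SE of 3.16 and an adjusted *p* of 0.0307 (edgeR), and the size rested on infarct 1, without which it was 5.65 (adjusted *p* = 0.000218). The call was lost without infarct 3 and without any 1 of the contralateral libraries, where the fitted change was 9.82 to 12.75, and DESeq2 gave no adjusted *p* for this gene. *Igkv10-94* (ENSMUSG00000096490) had 319, 1912 and 19 counts against 2, 0 and 0, an infarct level at least 266-fold higher than the floor, or at least 63.7-fold without infarct 2. Its call was lost without infarct 1 and without any 1 of the contralateral libraries. The order of the infarcts was different for the 2 genes, although they lie in the same family.

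Some segments with many counts in 1 or 2 infarcts could not be tested. *Igkv14-126* had 520, 1080 and 5 infarct counts against 0, 0 and 1 on the contralateral side. *Igkv4-68* had 4, 734 and 27 counts against 0, 0 and 1, and *Igkv8-30* had 22, 4 and 199 against 0, 0 and 1. In each of the 3 genes 1 infarct held more than 46 times the level of another. At the other end of the fitted changes, *Igkv4-91* had 78, 24 and 20 counts against 1, 0 and 0. *Igkv1-135* had 26, 144 and 37 counts against 0, 0 and 1, and *Igkv6-15* had 114, 13 and 110 against 0, 0 and 1.

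To compare usage between segments, each segment's counts were divided by its exon length and expressed as a share of the kappa total of that library. Exon lengths of the functional members ranged from 338 to 501 bases. A different segment led in each infarct. *Igkv10-96* held 55.4% of the kappa level in infarct 1, *Igkv10-94* held 37.5% in infarct 2 and *Igkv5-39* held 21.5% in infarct 3. As a share of plain counts the leading segments held 55.0% (95% Wilson interval 54.2 to 55.7), 35.6% (34.4 to 36.9) and 20.6% (19.1 to 22.3), so counting error was small beside the differences between infarcts. Intervals here cover counting error only.

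In the other 2 infarcts each leading segment was much less used. *Igkv10-96* held 1.36% in infarct 2 and 6.68% in infarct 3. *Igkv10-94* held 1.93% in infarct 1 and 0.791% in infarct 3. *Igkv5-39* held 1.40% in infarct 1 and 1.57% in infarct 2. Of the 3, *Igkv10-96* was the sole one to be among the 10 most used segments of every infarct.

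The second segment also changed from library to library. In infarct 1 it was *Igkv4-55* with 5.62%, and the leader was 9.85 times higher. In infarct 2 it was *Igkv14-126* with 20.5%, and the third was *Igkv4-68* with 12.7%. In infarct 3 it was *Igkv12-41* with 11.8%, followed by *Igkv8-30* with 7.82%. The leader was 1.83 times the second in infarct 2 and 1.81 times the second in infarct 3. Infarct 1 was thus led by 1 segment, infarct 2 by 3 and infarct 3 by a longer series of moderate ones.

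**Figure D2:**
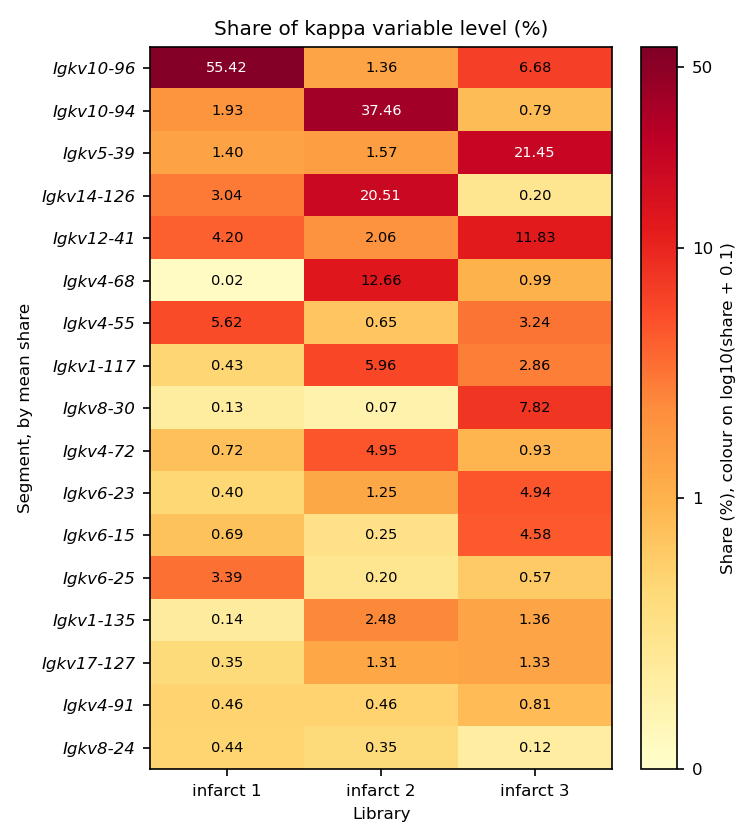
The heat map gives the share of the kappa variable level (counts per kb of exon, in percent) of the kappa segments named by rule in infarcts 1, 2 and 3, with segments ordered by mean share. The darkest cell of each column is in a different row, at 55.4% for *Igkv10-96*, 37.5% for *Igkv10-94* and 21.5% for *Igkv5-39*.

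Few abundant segments were common to the infarcts. No segment was among the 5 most used of all 3 infarcts. Among the 10 most used, 2 segments were common to all 3, *Igkv10-96* and *Igkv12-41*, out of 21 that appeared in any of the 3 lists. Pairs of infarcts had 4, 4 and 3 of their 10 in common, and 4, 5 and 5 segments appeared in the list of infarct 1, 2 or 3 alone. Among the 20 most used, 6 of 38 were common to all 3, namely *Igkv10-96*, *Igkv12-41*, *Igkv14-111*, *Igkv4-55*, *Igkv4-72* and *Igkv5-39*. *Igkv12-41* had 695, 105 and 284 counts and shares of 4.20%, 2.06% and 11.8%.

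The share of kappa usage common to 2 infarcts, that is the smaller share of each segment summed over segments, was 17.7% for infarcts 1 and 2, 27.9% for infarcts 1 and 3 and 19.9% for infarcts 2 and 3. The Morisita-Horn index, which is 0 with nothing in common and 1 for identical usage, was 0.0905, 0.246 and 0.107 for the same pairs. Summed by family, the common share was 65.6%, 44.0% and 35.0%. Usage therefore overlapped more by family than by segment in each pair, as it must when segments are pooled. Over the 55 kappa segments with at least 10 counts in some infarct, Spearman's rho of the usage shares was 0.42, 0.14 and 0.38 for the 3 pairs. These are descriptions across segments, which share a library, its depth and partly their sequence.

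Most segments took unequal shares of the 3 infarcts. Usage shares within each library were compared, a scale chosen after seeing the data, since infarct 1 held 70.9% of the summed kappa CPM and would lead for a segment used alike in all 3. A segment of equal share in the 3 infarcts would have 33.3% of its summed share in each. Of the same 55 segments, 50 had over 50% of their summed share in a single infarct and 21 had over 90% there, with a median of 81.6%. The infarct with the highest share was infarct 1 for 22 segments, infarct 2 for 11 and infarct 3 for 22. Small counts alone make shares unequal, so these numbers are a description.

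Some of the one-sided segments were chosen for the text after their values were seen. *Igkv13-85* had 387, 2 and 2 counts in infarcts 1, 2 and 3. *Igkv6-13* had 335, 1 and 0 counts, and *Igkv6-32* had 310, 2 and 0. *Igkv7-33*, the sole gene of its family, had 0, 36 and 0 counts, and *Igkv12-98* had 0, 0 and 65. Such segments were found for each of the 3 infarcts.

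At the level of families, *Igkv10* had the largest mean share, 34.6% ± 25.2 (SD, n = 3), although it has 3 functional genes, 3% of the 100 functional kappa genes. Its share was 57.4%, 38.8% and 7.47% in infarcts 1, 2 and 3, so it led in infarcts 1 and 2 and was sixth in infarct 3. Within it *Igkv10-96* made up 96.5% of the family in infarct 1, *Igkv10-94* made up 96.4% in infarct 2 and *Igkv10-96* made up 89.4% in infarct 3. The rank of the family thus rested on a different gene in infarct 2 than in infarct 1.

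*Igkv4*, the family with the most functional genes (26), was second by mean with 12.3% ± 6.18 (SD, n = 3). It held 9.40%, 19.4% and 8.10% in the 3 infarcts, led by *Igkv4-55*, *Igkv4-68* and again *Igkv4-55*. *Igkv14* held 5.20%, 21.01% and 3.40%. *Igkv5* held 1.69%, 1.74% and 22.0%, and *Igkv12* held 5.85%, 2.65% and 15.7%. These 3 families were each high in a single infarct, infarct 2 for *Igkv14* and infarct 3 for *Igkv5* and *Igkv12*.

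*Igkv6* held 8.72%, 2.24% and 11.6%, *Igkv1* held 2.49%, 9.13% and 5.11%, and *Igkv8* held 0.973%, 0.859% and 8.40%. Among the families of fewer counts, *Igkv13* held 3.17% in infarct 1 and 0.235% and 0.208% in infarcts 2 and 3. *Igkv18* and *Igkv20*, each with 1 functional gene, had 0 counts in all infarcts. Of the 20 families, 17, 17 and 15 had a count in infarcts 1, 2 and 3. The effective number of families was 5.05, 5.63 and 10.4. By this measure infarct 3 was the most even, and families with as little as 1 count are among those detected.

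**Figure D3:**
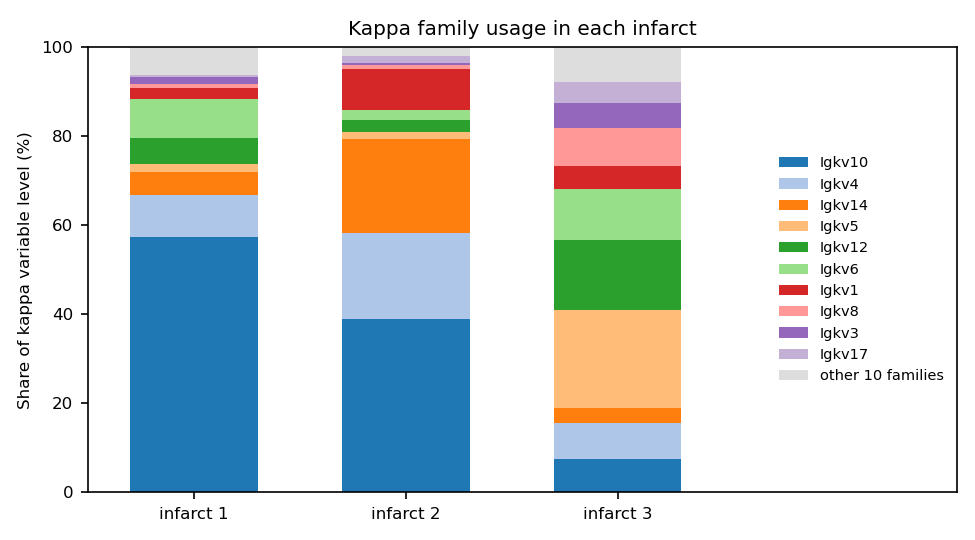
The stacked bars give the share of the kappa variable level (counts per kb of exon, in percent) of the 10 families with the largest mean share, and of the other 10 families together, in each infarct. *Igkv10* falls from 57.4% in infarct 1 to 7.47% in infarct 3, where *Igkv5* holds 22.0%.

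Evenness was measured by the effective number of segments, the exponential of Shannon's entropy, which equals the number of segments when all are used alike. It was 8.51, 8.77 and 21.1 in infarcts 1, 2 and 3, with a mean of 12.8 ± 7.19 (SD, n = 3). The inverse Simpson index, which weights abundant segments more, was 3.15, 4.84 and 11.9. Pielou's evenness, which runs from 0 to 1, was 0.493, 0.526 and 0.733. By each of the 3 measures infarct 3, which had the fewest kappa counts, was the most even and infarct 1, which had the most, the least.

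The number of segments that together reached 50% of the kappa level was 1, 2 and 5, and the number that reached 90% was 16, 10 and 23. The 10 most used segments held 81.9%, 90.3% and 71.3%. Without its leading segment the effective number was 26.1 in infarct 1, 11.2 in infarct 2 and 25.03 in infarct 3. The remaining segments of infarct 1 were thus about as even as those of infarct 3, and infarct 2 was then the least even. The number of kappa segments with a count was 77, 62 and 64. At an equal 2496 counts it came to 54.8, 52.0 and 64.0, so the order of infarcts 1 and 3 changed with depth.

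**Figure D4:**
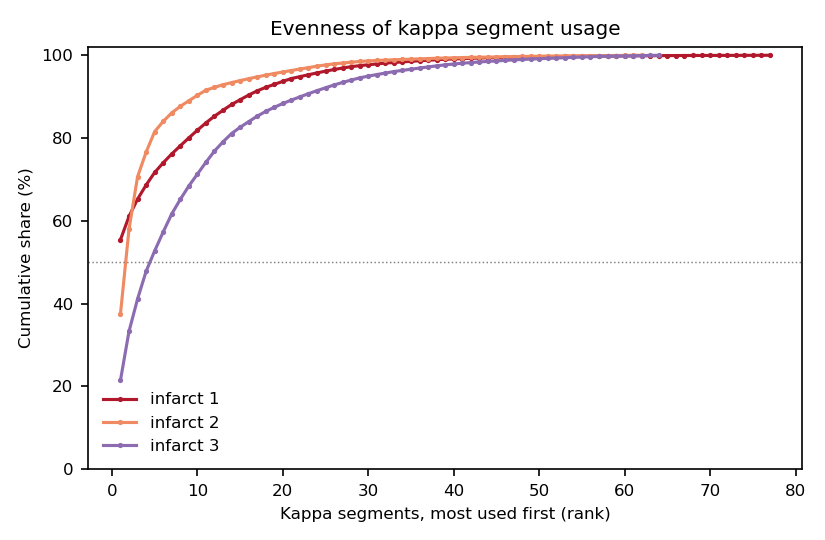
The cumulative plot adds up the share of the kappa variable level (percent, vertical axis) over segments ranked from the most used (horizontal axis), with 1 line per infarct and a dotted line at 50%. The line of infarct 1 starts at 55.4%, that of infarct 2 at 37.5% and that of infarct 3 at 21.5%, and the 50% line is reached with 1, 2 and 5 segments.

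The kappa segments lie on chromosome 6 between positions 67555497 and 70704177 (GRCm38), from 18.4 to 3166 kb from *Igkj1*, the first joining segment. Counts are on their annotated exons. Of the 100 functional kappa genes 62 are in the orientation opposite to the joining segments, the orientation joined by inversion. Segments in that orientation, pseudogenes included, held 82.9%, 66.2% and 69.7% of the kappa level in infarcts 1, 2 and 3. Without the leading segment of each library, which was in this orientation in all 3, the shares were 61.8%, 45.9% and 61.4%. Without *Igkv10-96* the share in infarct 1 was thus close to 62%.

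By distance, the segments nearer to *Igkj1* than the median functional segment, at 1314 kb, held 26.7%, 9.89% and 64.1%. Without the leading segments these shares were 59.8%, 15.8% and 54.3%. *Igkv10-96* lies at chr6:68631963-68632442 on the minus strand, 2090 kb from *Igkj1*, and *Igkv10-94* at chr6:68704508-68704978, 2018 kb from it. *Igkv5-39* lies at chr6:69900424-69900977, 822 kb from *Igkj1*, and *Igkv14-126* at chr6:67896172-67896642 on the plus strand, 2826 kb from it. The 3 most used segments of infarct 2 lay farther from *Igkj1* than the median functional segment. The 3 most used of infarct 3 lay nearer, but the next in infarct 3, *Igkv10-96*, lay farther.

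**Figure D5:**
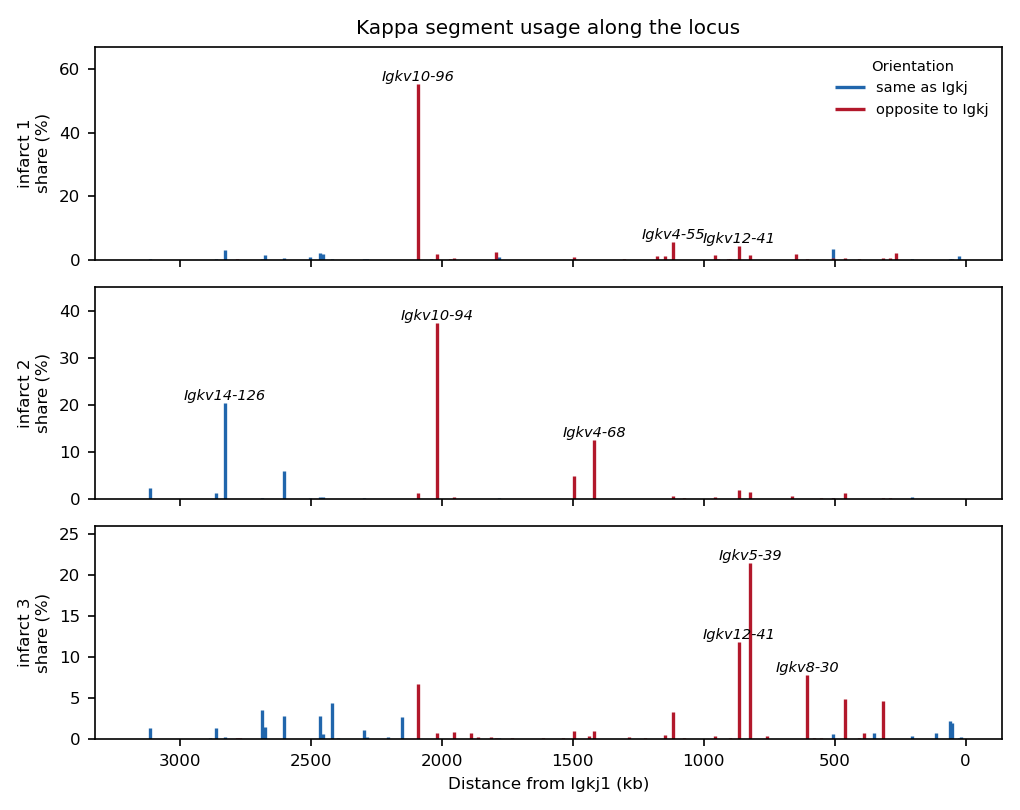
The usage map places each kappa segment by its distance from *Igkj1* in kb, with its share of the kappa variable level in percent as the height and its orientation relative to the joining segments as the colour, in 1 panel per infarct. The vertical scale differs between panels, and the 3 highest segments of each infarct are named, at 55.4%, 37.5% and 21.5% for the leaders.

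Counts on the joining segments were few. The 5 kappa joining segments *Igkj1* to *Igkj5* had 5, 7, 25, 89 and 50 counts over the 3 infarcts and 0 in the contralateral libraries. *Igkj4* had 24, 56 and 9 counts in infarcts 1, 2 and 3, and *Igkj5* had 15, 24 and 11. The exons of these genes, of 38 to 43 bases, are shorter than the 75-base reads. Whether the counts came from joined transcripts was not tested. Which variable segment each belonged to cannot be read from gene counts. Of the constant and joining genes, *Igkc*, *Igkj5*, *Iglc1*, *Iglc2* and *Iglc3* were tested, and all 5 were called higher in infarcts, as were 25.7% of all genes tested. For all of these but *Igkc* no contralateral library held more than 2 counts, so they entered the fit through their infarct counts and had to differ.

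Lambda was a small part of light chain usage in each infarct and its share differed between them. Per kb of exon the 3 lambda segments held 1.74%, 3.86% and 8.32% of the light variable level, a mean of 4.64% ± 3.36 (SD, n = 3), which was 2.80% without infarct 3. As a share of plain counts this was 1.87% (95% Wilson interval 1.68 to 2.08), 4.11% (3.62 to 4.66) and 8.91% (7.90 to 10.03), and the intervals did not overlap. The order of the infarcts was the reverse of that of the kappa level, whereas the lambda level itself ranged only from 16.7 to 26.2 CPM. The lambda share thus differed between infarcts more than the lambda level did.

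The constant genes gave a lower lambda share. *Iglc1*, *Iglc2* and *Iglc3* had 50, 91 and 77 counts in infarct 1, 16, 26 and 16 in infarct 2, and 72, 25 and 28 in infarct 3, and *Iglc4* had 0 throughout. Against *Igkc* they made up 0.507%, 0.263% and 1.34% of the constant counts. Infarct 3 had the highest share by both measures, but infarcts 1 and 2 changed places. The lambda constant genes held fewer counts than the lambda segments in each infarct, 218, 58 and 125 against 329, 230 and 244. *Igkc*, in contrast, held more counts than the kappa segments in each infarct. Reads shared among the lambda constant genes were not examined, so the 2 shares are not like measures. In contralateral cortices the lambda constant genes had 2, 0 and 0 counts.

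Within lambda, *Iglv1* at chr16:19085017-19085500 was the main segment in every infarct, with 83.5%, 84.8% and 88.4% of the lambda level. *Iglv3* had 46, 29 and 10 counts, 14.3%, 12.9% and 4.18% of the level. *Iglv2* had 7, 5 and 17 counts, 2.26%, 2.31% and 7.40%. Both minor segments had 0 counts in the contralateral libraries. Unlike kappa, the lambda locus had the same leading segment in all 3 infarcts, out of 3 segments.

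The contralateral cortex held 46 light variable counts in all, 36 of them (78.3%) in contralateral cortex 3. That library held 18 of the segments, and 17 of those had more than 3 counts in some infarct. Members with more than 3 counts in a contralateral library were *Igkv10-96* with 6, *Igkv12-41* and *Igkv4-55* with 4 each in contralateral cortex 3, and *Igkv8-24* with 4 in contralateral cortex 1. *Igkc* was also highest there, with 99 counts, against 8 and 7. *Ighg1*, the IgG1 heavy constant gene, had 17 counts in contralateral cortex 3 and 0 in the other 2. The red blood cell genes summed to 3.14 CPM in contralateral cortex 3 and to 4.28 and 0.846 CPM in contralateral cortices 1 and 2, and the part of blood in these counts was not tested.

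Several heavy constant genes, the partners of these light chains, were not used alike by the infarcts either. Of 8 such genes 7 were tested and 7 rose, with a median log2 fold change of 7.25, or 7.13 with lower bounds. Of all genes tested, 25.7% were called higher. For 3 of the 7 no contralateral library held more than 3 counts. At least these 3 entered the fit through their infarct counts and had to differ. *Ighg1* had 91, 84 and 2545 counts in infarcts 1, 2 and 3, the most of the 8 genes in infarct 3, without correction for length. *Ighm*, the IgM gene, had 19500, 12165 and 1484 counts, and *Ighg2c* had 3169, 1247 and 49. Others of the list were closer across the infarcts. *Igha*, the IgA gene, had 505, 631 and 515 counts, and *Ighd* had 527, 341 and 418. Infarct 3, where *Igkv5-39* led, was thus also the infarct with more counts on *Ighg1* than on *Ighm*. Which heavy chain was paired with which light chain cannot be read from bulk counts.

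The 60 pseudogenes gave a measure of counts assigned to segments that make no complete chain. Over the 3 infarcts 8 of them had 18 counts in all, against 25117 on the 100 functional kappa genes. Of the functional kappa genes 13 had no count in any infarct.

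Reads shared by near-identical segments are uncertain, because reads that align to several places were not counted. Of the 163 members, 79 had no stretch of 75 bases, the read length, in common with another gene's annotated transcripts, and 25 had under 75% of their stretches to themselves. The figure was 80.0% for *Igkv10-96*, 76.2% for *Igkv10-94*, 70.2% for *Igkv4-55* and 100% for *Igkv5-39* and *Igkv14-126*. The 2 leading *Igkv10* genes had 57 such stretches in common, so the coding sequences of this family were compared. *Igkv10-94* was 95.4% identical to *Igkv10-96* over 347 bases, with 16 differences, and *Igkv10-95*, the third gene, was 94.2% identical, with 20. The last 120 coding bases, with capitals for bases that differ from *Igkv10-96*, hold 12 and 13 of these differences and are printed to show where the genes can be told apart.
Igkv10-96: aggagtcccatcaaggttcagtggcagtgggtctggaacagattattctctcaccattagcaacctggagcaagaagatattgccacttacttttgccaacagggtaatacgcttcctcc
Igkv10-94: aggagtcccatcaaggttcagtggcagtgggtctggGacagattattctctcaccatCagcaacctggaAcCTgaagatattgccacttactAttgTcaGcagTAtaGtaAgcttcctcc
Igkv10-95: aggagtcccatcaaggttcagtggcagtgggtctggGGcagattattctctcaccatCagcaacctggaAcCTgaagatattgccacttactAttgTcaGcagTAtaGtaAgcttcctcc

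The counts of the pair moved in opposite directions between infarcts 1 and 2, 9493 and 72 for *Igkv10-96* against 319 and 1912 for *Igkv10-94*. With levels taken per base at which a unique stretch begins, the *Igkv10* family held a mean share of 36.0% in place of 34.6% and 2 segments were again common to the 10 most used of all infarcts.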

How the data were processed

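The authors prepared stranded mRNA libraries from tissue in RNAlater, sequenced paired 75-base reads on 1 instrument, demultiplexed them with bcl2fastq 2.19, trimmed them with Trimmomatic 0.32, aligned them to GRCm38 with STAR 2.5.2b and counted them with htseq-count. The deposited values are raw counts per Ensembl gene, without normalization. The annotation and strand setting of the counting are not given in the sources used here. Library totals on genes were 12146959 to 13427057 in infarcts and 11943570 to 19933962 in contralateral cortices, with 65.7% to 73.4% of the tallied reads on genes. The 5 entries of each table without a gene name entered neither library sizes nor tests.

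Samples were grouped by the labels. The labels number the libraries 1 to 3 in each region without stating a shared animal. Identifiers were matched to GENCODE M21 (45229 matched, 849 not). Counts were tested in R 4.3.3 with edgeR 4.0.16 (filterByExpr, TMM, robust quasi-likelihood, region as the only term) and called where the Benjamini-Hochberg adjusted *p* was under 0.05 and the log2 fold change over 1 in either direction. Each SE was derived from the fold change and its F statistic. Summed levels were compared by exact permutation. Usage shares are counts per kb of exon. No genome sequence was used, so stretches of 75 bases were compared among GENCODE M21 transcripts. The edgeR test was tried on simulated counts, and the evenness measures on fixed sets of shares with known answers.

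Members were found by symbol, but this group of genes and the gene lists were chosen with earlier results of these data known. Segments named are the 5 highest per kb in each infarct, all lambda segments, the highest of each of the 5 leading families, the 3 leading ones by *p*, the 3 largest and the 3 smallest fold changes, and those over 3 contralateral counts. *Igkv6-32*, *Igkv6-13*, *Igkv13-85*, *Igkv7-33*, *Igkv12-98*, *Igkv14-111*, *Igkv1-110* and *Igkv10-95* fall outside that rule and were named after their values were seen. Alternatives were DESeq2 1.42.0, limma voom (limma 3.58.1), RLE factors, library totals, other filters, other length corrections, the replicate number as a block and each library left out in turn.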

Additional observations from a re-analysis of the deposited data

How the results depend on the processing

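The 18 segments called by edgeR compare with 33 without a filter on low counts and 38 with DESeq2, whose adjusted *p* was not given for 39 members. With RLE factors, library totals, a minimum of 10 counts in every library of 1 region, no fold threshold and limma voom the count was between 15 and 19. Leaving out 1 library gave 16 to 25 calls. Of the 18, 17 were kept without infarct 1 (*Igkv10-94* lost), 18 without infarct 2, and 15 without infarct 3 (*Igkv10-96*, *Igkv14-111* and *Igkv6-25* lost). Without any 1 contralateral library 12 were kept, and those lost were *Igkv1-110*, *Igkv10-94*, *Igkv10-96*, *Igkv14-111*, *Igkv4-55* and *Igkv6-25* each time. The 5 constant and joining genes called became 8 without a filter.

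With the replicate number as a block, 18 segments and 5 constant and joining genes were called. Deviations of same-numbered libraries from their region's mean correlated at -0.190, 0.101 and 0.00110. Those of differently numbered libraries correlated between -0.238 and 0.178. With 3 libraries in each region these values cannot tell whether equal numbers share an animal. The labels state no shared animal, and the main test left the samples unpaired.

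The effective number of kappa segments, 12.8 on average, became 20.8 without the leading segment of each library, an alternative added after seeing the data, and the *Igkv10* share fell from 34.6% to 5.41%, below *Igkv4*. *Igkv10* led by mean share in 8 of 9 settings. Common segments numbered 0 among the 5 most used, 6 among the 20 most used, and 3 to 4 with 1 infarct left out. Detected segments averaged 67.7, and 56.9 at equal counts. The lambda share, 4.64%, was 2.80% to 6.09% with 1 infarct left out and 0.702% from the constant genes, also an alternative added after seeing the data. The cause of these changes was not tested. Levels per unique stretch used annotated transcripts, since the planned count over the genome was not run. The contralateral libraries held too few light chain counts, 2 to 36, to describe usage there.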
